A study of Sus scrofa with 6 samples.

Results

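The genes that build the mitotic spindle and drive chromosome segregation were examined in livers of pigs carrying a disrupted copy of ASGR1, the major subunit of the hepatic asialoglycoprotein receptor. The set holds 34 of the 17109 genes in the expression table, taken by name for their place in mitosis: the kinase and cyclins of mitotic entry, checkpoint and spindle kinases, kinetochore and centromere proteins, spindle motors and midzone proteins, chromosome structure proteins, and 2 factors of the anaphase-promoting complex. The set was chosen with earlier results of these data known. RNA sequencing had been run on 1 liver per pig from 3 ASGR1+/- Bama minipigs (libraries S04, S05 and S03) and 3 wild-type (WT) Bama minipigs (WT1, WT2 and WT3), all fasted overnight. The disrupted allele carries a deletion that crosses an intron-exon border of ASGR1, and it was made by CRISPR/Cas9 in fetal fibroblasts whose edited colonies were cloned by nuclear transfer. The ASGR1+/- line therefore descends from few edited cells. The pigs were juveniles a few months old at most, and the study's methods describe its pigs as male with the exception of 1 animal of the F1 generation. S03 carries the ASGR1+/- label but was left out by the study after a principal-component analysis, so S04 and S05 are compared with WT here, and S03 is shown apart and in a separate fit.

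Mitosis begins when CDK1, bound to a B-type cyclin, phosphorylates a wide range of proteins, so that chromosomes condense and the spindle assembles. Kinetochores then capture spindle microtubules under the watch of the spindle checkpoint, and the anaphase-promoting complex, switched on by CDC20, destroys cyclin B and securin so that sister chromatids part. The spindle midzone finally positions the cleavage furrow. Most of these transcripts accumulate in the later phases of the cycle and are scarce in cells at rest. In adult liver nearly all hepatocytes are at rest, while the growing liver of a young animal still divides, and hepatocytes that skip the last step, cytokinesis, become binucleate or polyploid.

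The libraries held between 15397768 (S03) and 16237732 (WT3) estimated counts. ASGR1 itself did not separate the genotypes, at 370.0 and 367.0 TPM (a share of all transcripts, per unit of transcript length) in S04 and S05 and 485.0 TPM in S03, against 416.0, 452.0 and 305.0 TPM in WT1, WT2 and WT3, so its level does not check the labels. HBB, a beta-globin chain of red cells, was highest in S03, at 5140.0 TPM. It was at 16.6 and 107.0 TPM in S04 and S05 and at 973.0, 445.0 and 1200.0 TPM in WT1, WT2 and WT3. What set S03 apart from the other libraries was not tested.

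All 34 genes were detected in every library and all passed the filter on low counts. They are scattered over 16 chromosomes, with CCNB3 and KIF4A on the X chromosome. Most were scarce, as 27 of them stayed under 10 TPM in every library. Their estimated counts ran from 17 (CCNB3 in S05, with a 95% exact Poisson interval of 9.9 to 27.2 that covers counting error only) to 1582 (MKI67 in WT1). The counts of KIF20A, NUSAP1 and NCAPG were not all whole numbers, so reads were shared between these and other genes, and their values are less certain for that reason.

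Added together, the 34 transcripts stood at 92.57 TPM in S04 and 80.19 TPM in S05, and at 119.8 TPM in S03, against 242.6, 139.6 and 233.7 TPM in WT1, WT2 and WT3. Every ASGR1+/- liver lay below every WT liver, and WT2 was the lowest of the WT livers. The mean of S04 and S05 was 86.4 ± 8.75 TPM (SD, n = 2), or 42.1% of the WT mean of 205.0 ± 57.1 TPM (SD, n = 3). In a bulk liver, fewer dividing cells and less RNA of these genes per cell cannot be told apart. Computed from counts scaled by the trimmed mean of M-values (TMM), which corrects for the make-up of each library, the same sum was 34.6% of WT. For single genes the mean level in S04 and S05 lay between 20.9% (CDK1) and 90.9% (BIRC5) of the WT mean, with a median of 34.1%, and 28 of the 34 were under 50% of it.

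**Figure D1:**
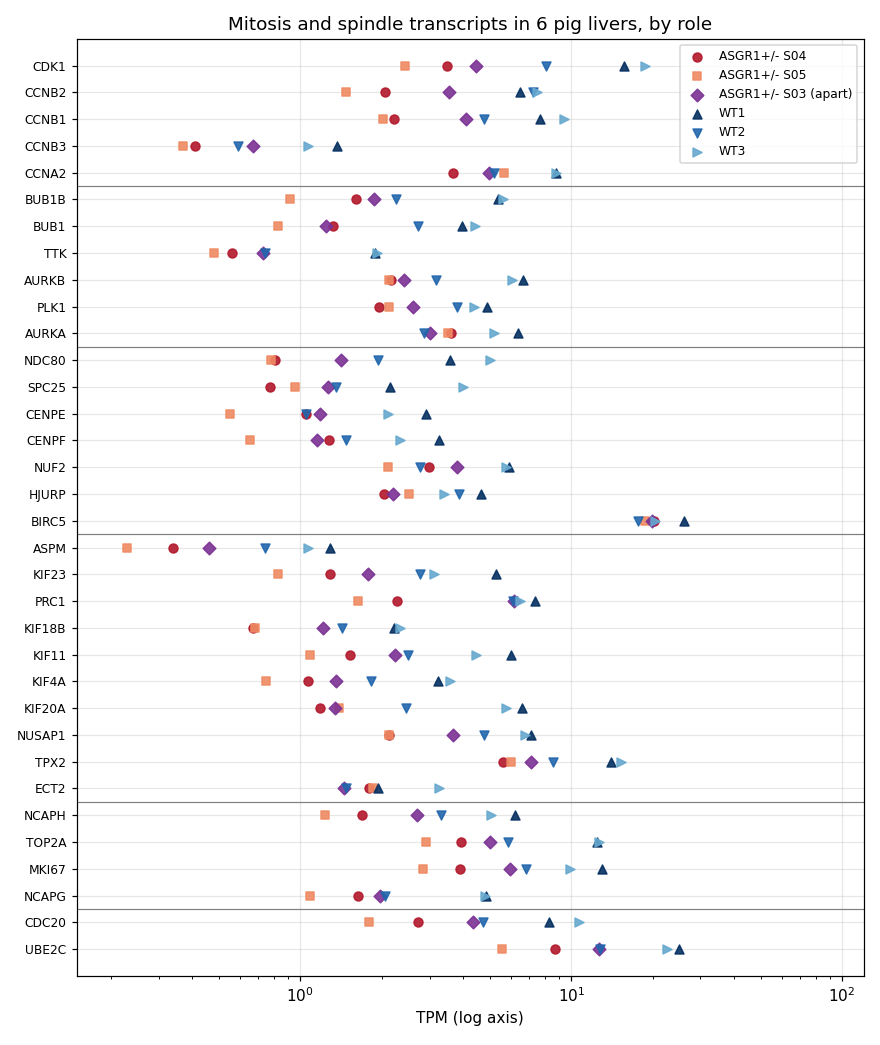
Level of each of the 34 genes in the 6 livers, in TPM on a log axis, grouped by role with grey lines between the roles. Each point is 1 library. S04 and S05 (red and orange) lie left of all 3 WT livers (blue) for 28 genes, S03 (purple) usually lies between them and the WT livers, and BIRC5 has the highest mean level and shows the groups mixed.

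The fitted change was negative for all 34 genes in S04 and S05 against WT, where 49.8% of the 13401 genes tested were negative. The median log2 fold change of the 34 was -1.67, with a range of -2.39 to -0.24, and the median over all genes tested was 0.00. Because the 34 were chosen with earlier results of these data known, their contrasts with all genes, here and below, are descriptions only. Only PRC1 fell past the threshold, an adjusted p of 0.05 from edgeR's quasi-likelihood test with Benjamini-Hochberg adjustment over all genes, when 0.575% of all genes were called lower there. None of the 34 rose, when 0.216% of all genes were called higher. At an unadjusted p under 0.05, 30 of the 34 were lower, when 12% of all genes (1609 of 13401) were. DESeq2, a second count test, called 27 of the 34 lower, when it called 6.49% of all genes lower. In TPM, S04 and S05 were both below every WT library for 28 genes, as they were for 14.4% of all genes, and in TMM-scaled counts for 31 genes, as they were for 20.1% of all genes. The PRC1 call is narrow: leaving out any library ended it, with adjusted p of 0.0689 without S04, 0.169 without S05, 0.0699 without WT1, 0.123 without WT2 and 0.0579 without WT3 in edgeR. The DESeq2 count was 6 without S05, 20 without S04, 19 without WT1, 27 without WT2 and 18 without WT3.

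**Figure D2:**
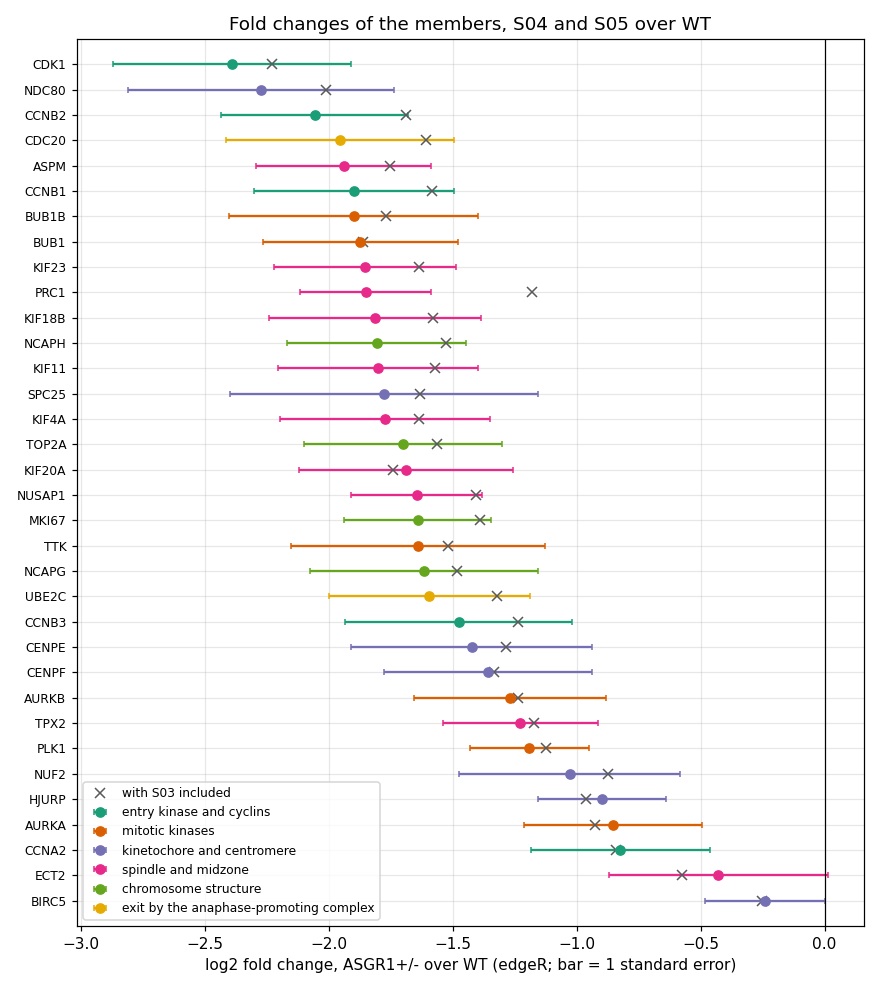
Fitted log2 fold change of each gene in S04 and S05 over WT, coloured by role, with bars of 1 standard error from edgeR, and crosses for the fit that includes S03. All 34 points lie below 0, from -2.39 for CDK1 to -0.24 for BIRC5, and the cross of PRC1 lies farthest from its point, at -1.18.

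The kinase and cyclins of mitotic entry had a median log2 fold change of -1.90, with 4 of 5 lower at an unadjusted p under 0.05. CDK1, the master kinase of mitosis (Sscrofa11.1 chromosome 14, 64233945 to 64255290), was at 3.48 and 2.44 TPM in S04 and S05 and 4.45 TPM in S03, against 15.63, 8.06 and 18.71 TPM in WT1, WT2 and WT3. All 3 ASGR1+/- livers were below all 3 WT livers, and WT2 was the nearest to them. The log2 fold change of CDK1 was -2.39 ± 0.48 (SE), the lowest of the 34, but its adjusted p was 0.0696 in edgeR. CCNB2, a B-type cyclin that works with CDK1, was at 2.05 and 1.47 TPM in S04 and S05 and 3.54 TPM in S03, against 6.47, 7.22 and 7.50 TPM in WT1, WT2 and WT3. It was one of few genes for which WT2 was not the low WT liver, and it had the smallest unadjusted p of this group, with a log2 fold change of -2.06 ± 0.38 (SE) and an adjusted p of 0.0613 in edgeR.

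CCNB1, the main partner of CDK1 at mitotic entry (chromosome 16, 47338239 to 47348385), was at 2.21 and 2.02 TPM in S04 and S05 and 4.09 TPM in S03, against 7.67, 4.77 and 9.41 TPM in WT1, WT2 and WT3. Again no ASGR1+/- liver reached a WT liver. CCNB3, a B-type cyclin known best from meiosis in mice, was at 0.41 and 0.37 TPM in S04 and S05 and 0.67 TPM in S03, against 1.37, 0.59 and 1.07 TPM in WT1, WT2 and WT3. Here S03 lay above WT2 in TPM, but not in TMM-scaled counts. CCNA2, which acts in S phase and G2 before the B-type cyclins, was at 3.66 and 5.64 TPM in S04 and S05 and 4.97 TPM in S03, against 8.79, 5.18 and 8.81 TPM in WT1, WT2 and WT3. The groups overlapped in TPM, since S05 lay above WT2, but not in TMM-scaled counts. CCNA2 had a log2 fold change of -0.83 with an adjusted p of 0.255 in edgeR.

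Among the mitotic kinases the median log2 fold change was -1.45, and all 6 were lower at an unadjusted p under 0.05 while none passed the adjusted threshold. PLK1, the polo kinase that matures centrosomes and triggers mitotic entry, was at 1.96 and 2.12 TPM in S04 and S05 and 2.61 TPM in S03, against 4.89, 3.78 and 4.37 TPM in WT1, WT2 and WT3. These 2 groups were clearly apart with little spread inside either, and the log2 fold change was -1.19 ± 0.24 (SE) with an adjusted p of 0.0696 in edgeR. BUB1, the checkpoint kinase that recruits other checkpoint proteins to kinetochores, was at 1.32 and 0.83 TPM in S04 and S05 and 1.24 TPM in S03, against 3.95, 2.72 and 4.40 TPM in WT1, WT2 and WT3. S03 lay between S04 and S05, and BUB1 had the smallest adjusted p of the 34 in the fit with S03, at 0.076 in edgeR.

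BUB1B, which encodes the checkpoint protein BUBR1 that holds CDC20 in check, was at 1.61 and 0.92 TPM in S04 and S05 and 1.87 TPM in S03, against 5.35, 2.25 and 5.60 TPM in WT1, WT2 and WT3. TTK, the kinase that starts checkpoint signalling, was at 0.56 and 0.48 TPM in S04 and S05 and 0.73 TPM in S03, against 1.88, 0.74 and 1.92 TPM in WT1, WT2 and WT3. For both of these genes WT2 was near S03 and well under the other WT livers. AURKB, the kinase of the chromosomal passenger complex that corrects faulty attachments, was at 2.16 and 2.12 TPM in S04 and S05 and 2.42 TPM in S03, against 6.62, 3.16 and 6.05 TPM in WT1, WT2 and WT3. AURKA, its relative at the spindle poles, was at 3.61 and 3.50 TPM in S04 and S05 and 3.02 TPM in S03, against 6.39, 2.86 and 5.19 TPM in WT1, WT2 and WT3. In TPM, WT2 was the lowest liver of all for AURKA, so the groups overlapped. In TMM-scaled counts every ASGR1+/- liver was below every WT liver for this gene. The log2 fold change of AURKA was -0.85 ± 0.36 (SE), with an adjusted p of 0.237 in edgeR.

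The kinetochore and centromere group was the most uneven, with log2 fold changes from -2.27 to -0.24, a median of -1.36, and 5 of 7 genes lower at an unadjusted p under 0.05. NDC80, the microtubule-binding subunit after which the NDC80 complex is named, was at 0.81 and 0.78 TPM in S04 and S05 and 1.41 TPM in S03, against 3.58, 1.94 and 5.03 TPM in WT1, WT2 and WT3. The ASGR1+/- livers were all below the WT livers, which themselves were widely spread, and the log2 fold change was -2.27 ± 0.54 (SE) with an adjusted p of 0.0876 in edgeR. NUF2, the partner that pairs with NDC80 along its coiled coil, was at 2.99 and 2.11 TPM in S04 and S05 and 3.79 TPM in S03, against 5.91, 2.77 and 5.77 TPM in WT1, WT2 and WT3. SPC25, the subunit that anchors the complex at the inner kinetochore, was at 0.77 and 0.96 TPM in S04 and S05 and 1.27 TPM in S03, against 2.15, 1.36 and 3.98 TPM in WT1, WT2 and WT3. Within this complex, then, NUF2 overlapped between the groups through WT2 while NDC80 and SPC25 did not. Whether the complex members differ from each other in their change was not tested.

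CENPE, a kinesin that carries chromosomes to the spindle equator, was at 1.05 and 0.55 TPM in S04 and S05 and 1.18 TPM in S03, against 2.92, 1.05 and 2.11 TPM in WT1, WT2 and WT3. CENPF, a large protein of the outer kinetochore, was at 1.28 and 0.65 TPM in S04 and S05 and 1.15 TPM in S03, against 3.26, 1.47 and 2.33 TPM in WT1, WT2 and WT3. In TPM, S04 tied with WT2 for CENPE but was below it for CENPF. In TMM-scaled counts every ASGR1+/- liver was below every WT liver for both genes. HJURP, the chaperone that loads the centromeric histone CENPA, was at 2.04 and 2.51 TPM in S04 and S05 and 2.20 TPM in S03, against 4.66, 3.87 and 3.40 TPM in WT1, WT2 and WT3. All ASGR1+/- livers were below all WT livers for HJURP, by a smaller step than for CDK1 or NDC80, with a log2 fold change of -0.90 ± 0.26 (SE).

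BIRC5, which encodes survivin, a subunit of the same passenger complex as AURKB, had the change nearest to 0 (chromosome 12, 3747276 to 3755214). It was at 20.16 and 18.74 TPM in S04 and S05 and 19.85 TPM in S03, against 26.13, 17.61 and 20.42 TPM in WT1, WT2 and WT3. In TPM, WT2 was the lowest liver and only WT1 stood clear of the rest. The log2 fold change was -0.24 ± 0.24 (SE), with an adjusted p of 0.614 in edgeR. With BIRC5 as its most abundant gene, the kinetochore and centromere group summed to 29.10 and 26.30 TPM in S04 and S05, or 68.3% of the WT mean, which was a larger share than for any other role (32.0% to 44.1%).

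Spindle motors and midzone proteins held the only call, with a median log2 fold change of -1.79 and 9 of 10 lower at an unadjusted p under 0.05. PRC1, which cross-links antiparallel microtubules and so builds the midzone between the separating chromosomes (chromosome 7, 55869749 to 55900640), was at 2.28 and 1.63 TPM in S04 and S05 and 6.14 TPM in S03, against 7.38, 6.11 and 6.46 TPM in WT1, WT2 and WT3. In TPM the WT livers were close together, S04 and S05 lay far below them, and S03 lay just above WT2. In TMM-scaled counts S03 was below every WT liver for PRC1. PRC1 fell by 1.85 ± 0.26 (SE) on the log2 scale in S04 and S05, with an adjusted p of 0.0431 in edgeR and 4.4e-07 in DESeq2. With S03 in the fit its log2 fold change was -1.18 and its adjusted p was 0.237 in edgeR and 0.0972 in DESeq2. In S03 it stood at 92.3% of the WT mean, where S04 and S05 averaged 29.4%.

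NUSAP1, which bundles microtubules around chromosomes (chromosome 1, 129992797 to 130065641), was at 2.13 TPM in both S04 and S05 and 3.65 TPM in S03, against 7.12, 4.77 and 6.74 TPM in WT1, WT2 and WT3. It came next after PRC1, with a log2 fold change of -1.65 ± 0.27 (SE) and an adjusted p of 0.0503 in edgeR, just outside the threshold. ASPM, a spindle pole protein, was at 0.34 and 0.23 TPM in S04 and S05 and 0.46 TPM in S03, against 1.29, 0.74 and 1.07 TPM in WT1, WT2 and WT3. TPX2, which activates AURKA and nucleates microtubules near chromatin, was at 5.61 and 5.98 TPM in S04 and S05 and 7.12 TPM in S03, against 14.00, 8.57 and 15.25 TPM in WT1, WT2 and WT3. Neither gene overlapped between the genotypes, S03 included. ECT2, the exchange factor that activates RhoA for the cleavage furrow, was at 1.79 and 1.85 TPM in S04 and S05 and 1.45 TPM in S03, against 1.94, 1.47 and 3.26 TPM in WT1, WT2 and WT3. Its mean difference rested on WT3, since without that liver the log2 fold change was 0.10 in place of -0.43.

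The 5 kinesins of this group were all lower at an unadjusted p under 0.05, and none passed the adjusted threshold. KIF11, the motor that pushes the spindle poles apart, was at 1.53 and 1.09 TPM in S04 and S05 and 2.24 TPM in S03, against 6.02, 2.50 and 4.46 TPM in WT1, WT2 and WT3. KIF23, the centralspindlin motor of the midzone, was at 1.29 and 0.83 TPM in S04 and S05 and 1.78 TPM in S03, against 5.27, 2.77 and 3.11 TPM in WT1, WT2 and WT3. Both separated the genotypes completely, and KIF23 had the lowest adjusted p among the kinesins, 0.069 in edgeR, with a log2 fold change of -1.85 ± 0.37 (SE). KIF20A, which brings the passenger complex to the midzone, was at 1.18 and 1.39 TPM in S04 and S05 and 1.34 TPM in S03, against 6.61, 2.46 and 5.74 TPM in WT1, WT2 and WT3. KIF4A, the chromokinesin that works with PRC1 on midzone length, was at 1.07 and 0.75 TPM in S04 and S05 and 1.35 TPM in S03, against 3.22, 1.83 and 3.58 TPM in WT1, WT2 and WT3. Unlike PRC1, KIF4A in S03 was below all WT livers in TPM. KIF18B, which shortens astral microtubules, was at 0.67 and 0.68 TPM in S04 and S05 and 1.21 TPM in S03, against 2.22, 1.43 and 2.33 TPM in WT1, WT2 and WT3, again with no overlap.

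The chromosome structure genes had a narrow band of log2 fold changes, between -1.81 and -1.62, with all 4 lower at an unadjusted p under 0.05. MKI67, which encodes the proliferation marker Ki-67, a coat of the mitotic chromosome (chromosome 14, 137266622 to 137296312), was at 3.88 and 2.83 TPM in S04 and S05 and 5.94 TPM in S03, against 12.98, 6.79 and 9.89 TPM in WT1, WT2 and WT3. The genotypes did not overlap, and the log2 fold change was -1.64 ± 0.30 (SE) with an adjusted p of 0.0607 in edgeR and 4.35e-05 in DESeq2. TOP2A, the topoisomerase that untangles sister chromatids, was at 3.92 and 2.91 TPM in S04 and S05 and 5.0 TPM in S03, against 12.48, 5.87 and 12.72 TPM in WT1, WT2 and WT3. NCAPG, a subunit of condensin I, was at 1.64 and 1.09 TPM in S04 and S05 and 1.97 TPM in S03, against 4.85, 2.05 and 4.79 TPM in WT1, WT2 and WT3. NCAPH, the kleisin of the same complex, was at 1.69 and 1.23 TPM in S04 and S05 and 2.70 TPM in S03, against 6.22, 3.32 and 5.04 TPM in WT1, WT2 and WT3. No ASGR1+/- liver overlapped a WT liver for these 3 genes, although S03 and WT2 were almost level for NCAPG.

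Both factors of the anaphase-promoting complex were lower at an unadjusted p under 0.05. CDC20, its activator in mid-mitosis, was at 2.73 and 1.79 TPM in S04 and S05 and 4.33 TPM in S03, against 8.31, 4.74 and 10.71 TPM in WT1, WT2 and WT3. UBE2C, the ubiquitin-conjugating enzyme that works with the complex, was at 8.69 and 5.57 TPM in S04 and S05 and 12.70 TPM in S03, against 25.11, 12.78 and 22.52 TPM in WT1, WT2 and WT3. S04 and S05 were below every WT liver for both, and S03 was level with WT2 for UBE2C. Their log2 fold changes were -1.95 ± 0.46 (SE) for CDC20, with an adjusted p of 0.0873, and -1.59 ± 0.40 (SE) for UBE2C, with an adjusted p of 0.0981, both in edgeR.

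The livers had a common order across the genes. In TPM, S05 was the lowest liver for 23 of the 34 and S04 for 8, while the highest liver was WT1 for 19 and WT3 for 15. WT2 was the lowest WT liver for 32 of them. S03 stood above both S04 and S05 for 26, between them for 6 and below both for 2, and it was below every WT liver for 28. In TMM-scaled counts, S03 was below every WT liver for 33 of the 34, and WT2 was the lowest WT liver for 33. The 34 genes share each library and are not independent of each other, so these counts describe 6 livers and not 34 repeats. The shares of all genes with the same orders were not counted, so the orders may not be particular to the 34.

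With S03 included, the 3 ASGR1+/- livers against WT again gave 34 negative changes of 34, where 47.6% of all genes were negative, with a median of -1.50 (0.02 over all 13243 genes tested). None passed in edgeR, where 0.128% of all genes were called lower, and 31 were lower at an unadjusted p under 0.05, where 9.45% of all genes were. DESeq2 called 26 lower, against 4.29% of all genes, and each of these 26 was also among its 27 without S03. All 3 ASGR1+/- livers were below all 3 WT livers for 26 genes in TPM, as for 6.49% of all genes, and for 31 in TMM-scaled counts, as for 11.8% of all genes. The median level in S03 was 55.0% of the WT mean.

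Other genes of the cell cycle were read from 8 lists, with 211 genes tested in all. Past the adjusted threshold of edgeR none of these fell and 1 rose, 77 were lower and 6 higher at an unadjusted p under 0.05, and the median log2 fold change was -0.50. At the unadjusted threshold 12% of all genes tested were lower and 8.89% higher, which are the shares to set beside the counts of each list. The changes of 164 of the 211 were negative and those of 47 positive. DESeq2 called 43 of the 211 lower and 1 higher, when it called 6.49% of all genes lower and 3.32% higher. Their medians ran from -0.16 to -0.90, all nearer to 0 than the -1.67 of the 34 genes. Single genes of the lists ran from -3.34 to 1.49. The lists thus mixed genes that fell as far as the 34, such as SKA1 (-2.27), with genes that changed little, such as BUB3 (-0.06). The lists were chosen by role, but they and the 34 genes were chosen with earlier results of these data known. The contrast of medians is therefore a description only.

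**Figure D3:**
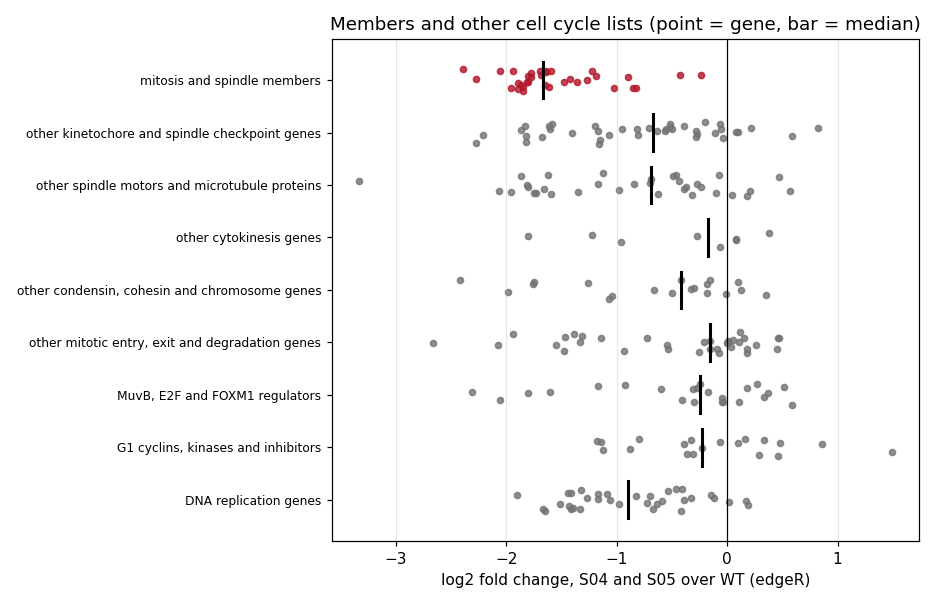
Log2 fold change in S04 and S05 over WT for the 34 mitosis and spindle genes (red) and for the genes of 8 other cell cycle lists (grey), from edgeR. Each point is a gene and each black bar the median of its list, which is -1.67 for the 34 genes, -0.90 for DNA replication and -0.16 for the other entry, exit and degradation genes. CCND3 is the rightmost point of the G1 list, at 1.49.

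The closest lists by function were the other kinetochore and checkpoint genes and the other spindle motors and microtubule proteins. In the kinetochore list 16 of 40 were lower and 2 higher at an unadjusted p under 0.05, with a median of -0.67. Its smallest unadjusted p values belonged to CENPT, which links centromeric chromatin to the NDC80 complex, CDCA8, the borealin subunit of the passenger complex, and CENPA, with log2 fold changes of -1.87, -1.82 and -1.61. In the spindle list 16 of 34 were lower and 1 higher, with a median of -0.69. GTSE1, a microtubule-stabilising protein, was at 1.44 and 1.83 TPM in S04 and S05 and 4.08 TPM in S03, against 7.34, 6.45 and 3.36 TPM in WT1, WT2 and WT3. S03 was above WT3 here, and the log2 fold change of GTSE1 was -1.87 with an adjusted p of 0.0577 in edgeR. NEK2, a kinase that splits centrosomes, had a log2 fold change of -1.96. FAM83D, a spindle protein, had counts of only 2 and 3 in S04 and S05 and 4 in S03, against 23, 18 and 32 in WT1, WT2 and WT3.

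Cytokinesis had the fewest genes. There 3 of 8 genes, with an unadjusted p under 0.05, were lower and none higher, and the median was -0.17. These 3 were CIT, a kinase of the midbody, at -1.22, ANLN, the scaffold anillin of the contractile ring, at -1.81, and RACGAP1, the partner of KIF23 in centralspindlin, at -0.96. Among the other condensin, cohesin and chromosome genes 7 of 19 were lower and none higher, with a median of -0.42. ESPL1, the protease separase that cuts cohesin, had a log2 fold change of -1.76, SMC4, the core ATPase of condensin, -1.07, and LMNB1, which encodes lamin B1 of the nuclear envelope, -1.04. The other entry, exit and degradation genes had 11 of 34 lower and 1 higher, with a median of -0.16. CCNF, an F-box protein, was at 0.95 and 0.92 TPM in S04 and S05 and 1.64 TPM in S03, against 3.83, 2.48 and 3.80 TPM in WT1, WT2 and WT3. It did not overlap between the genotypes, and had a log2 fold change of -1.94 with an adjusted p of 0.055 in edgeR. TROAP, a spindle-associated protein, and MELK, a kinase that peaks in mitosis, had log2 fold changes of -2.08 and -1.34.

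The transcription factors that drive mitotic genes were among the regulators, where 5 of 23 were lower and 1 higher at an unadjusted p under 0.05, with a median of -0.25. FOXM1, the forkhead factor that acts on many G2 and mitosis promoters, was at 0.48 and 0.51 TPM in S04 and S05 and 1.19 TPM in S03, against 2.42, 0.98 and 2.38 TPM in WT1, WT2 and WT3. S03 lay above WT2, and S04 and S05 below all WT livers. MYBL2, which joins the MuvB complex to activate the same class of genes, was at 3.19 and 3.67 TPM in S04 and S05 and 3.64 TPM in S03, against 9.29, 4.41 and 7.90 TPM in WT1, WT2 and WT3. E2F8, a repressor of the E2F family, was at 0.61 and 0.52 TPM in S04 and S05 and 1.14 TPM in S03, against 2.87, 1.49 and 3.37 TPM in WT1, WT2 and WT3. Neither of these overlapped between the genotypes. None of the 3 passed, with log2 fold changes of -2.06 for FOXM1, -1.17 for MYBL2 and -2.31 for E2F8 and adjusted p of 0.0964, 0.132 and 0.0753 in edgeR.

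The DNA replication genes, which act in S phase, were the list nearest to the mitosis genes, with 17 of 34 lower and none higher at an unadjusted p under 0.05 and a median of -0.90. CDC45, a subunit of the replicative helicase, had a log2 fold change of -1.17, UHRF1, which keeps DNA methylation on new strands, -1.67, and TK1, which makes thymidine phosphate, -1.91. In the G1 list 2 of 19 were lower and 1 higher, with a median of -0.23, which was 0.12 with S03 included. CCND3, a D-type cyclin of G1 that is also abundant in blood cells, was at 83.77 and 97.06 TPM in S04 and S05 and 70.99 TPM in S03, against 49.32, 30.02 and 27.19 TPM in WT1, WT2 and WT3. Every ASGR1+/- liver was above every WT liver. CCND3 rose by 1.49 ± 0.19 (SE) on the log2 scale in S04 and S05, with an adjusted p of 0.0378 in edgeR. That call was lost with S03 included (0.0818), with limma on log2(TPM + 0.1) (0.0608) or log2(TPM + 1) (0.0643), and without S04 (0.0706), S05 (0.147), WT2 (0.118) or WT3 (0.0545), but not without WT1 (0.0368). CDKN2C, an inhibitor of the kinases that CCND3 activates, and GADD45A, a stress-induced growth arrest gene, had log2 fold changes of -1.18 and -1.13, with adjusted p of 0.0897 and 0.158 in edgeR.

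Cell types that could contribute mitotic transcripts to a whole liver were followed through their markers. Hepatocyte markers were abundant in all livers, so the tissue matched its label, but their summed level was 48030.0 and 57480.0 TPM in S04 and S05 and 69450.0 TPM in S03, against 74080.0, 130100.0 and 138500.0 TPM in WT1, WT2 and WT3. This order put all ASGR1+/- livers below all WT livers, as for the mitosis genes, but it rested on ALB, the albumin gene. ALB was at 6930.0 and 10100.0 TPM in S04 and S05 and 25000.0 TPM in S03. In WT1, WT2 and WT3 it was at 27900.0, 74700.0 and 73900.0 TPM. With ALB taken out of the sum, S05 lay above WT1. Of the 12 hepatocyte markers 5 were lower and 1 higher at an unadjusted p under 0.05 and none passed in edgeR. At that unadjusted threshold 12% of all genes (1609 of 13401) were lower and 8.89% higher, which are the shares to set beside each marker count. The T and NK lymphocyte markers summed to 186.1 and 153.8 TPM in S04 and S05 and 344.5 TPM in S03, against 379.3, 195.1 and 173.5 TPM in WT1, WT2 and WT3. All 12 measured had negative changes in S04 and S05, and 4 were lower at an unadjusted p under 0.05. Of these markers 1 passed, KLRD1, a receptor of NK cells, which fell by 4.37 on the log2 scale with an adjusted p of 0.0149 in edgeR. The groups overlapped in this sum, with WT3 below S04 and S03 above WT2 and WT3.

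Erythroid markers summed to 18.55 and 110.3 TPM in S04 and S05 and 5227.0 TPM in S03, against 987.8, 455.9 and 1221.0 TPM in WT1, WT2 and WT3. S04 and S05 were the lowest and S03 by far the highest, almost entirely through HBB. Of 7 tested, 6 were lower in S04 and S05 at an unadjusted p under 0.05 and none passed in edgeR, and KLF1, a defining transcription factor of erythroid precursors, had no count in S04, S05, S03 or WT3. Macrophage markers summed to 1809.0 and 2258.0 TPM in S04 and S05 and 1686.0 TPM in S03, against 3736.0, 3278.0 and 1836.0 TPM in WT1, WT2 and WT3. WT3 lay among the ASGR1+/- livers and below the other WT livers. Of the 10 macrophage markers 3 were lower and none higher at an unadjusted p under 0.05, and none passed in edgeR. Endothelial markers summed to 97.45 and 143.2 TPM in S04 and S05 and 341.9 TPM in S03, against 196.2, 201.3 and 144.3 TPM in WT1, WT2 and WT3. S03 was the highest liver, and S04 and S05 lay below every WT liver, S05 only just below WT3. Of the 9 endothelial markers 5 were lower and 1 higher at an unadjusted p under 0.05, and none passed in edgeR. DESeq2 called 4 of them lower and 1 higher, when it called 6.49% of all genes lower and 3.32% higher. Neutrophil markers were the reverse, at 45.35 and 51.78 TPM in S04 and S05 and 47.22 TPM in S03, against 11.11, 20.37 and 13.85 TPM in WT1, WT2 and WT3, with 3 of the 5 tested higher at an unadjusted p under 0.05 and none past the adjusted threshold. B and plasma cell markers (79.98 to 111.8 TPM in S04 and S05, 157.4 TPM in S03, 41.85 to 181.9 TPM in WT) and stellate and fibroblast markers (164.1 to 210.9 TPM in S04 and S05, 474.2 TPM in S03, 140.0 to 304.2 TPM in WT) overlapped between S04 and S05 and WT, and cholangiocyte markers were at 63.12 and 97.48 TPM in S04 and S05 and 44.17 TPM in S03, against 27.13 to 51.62 TPM in WT. S03 was thus inside the WT range for the B cell and cholangiocyte sets and above every other liver for the stellate set. The part of each cell type in the lower level of the mitosis genes was not tested.

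**Figure D4:**
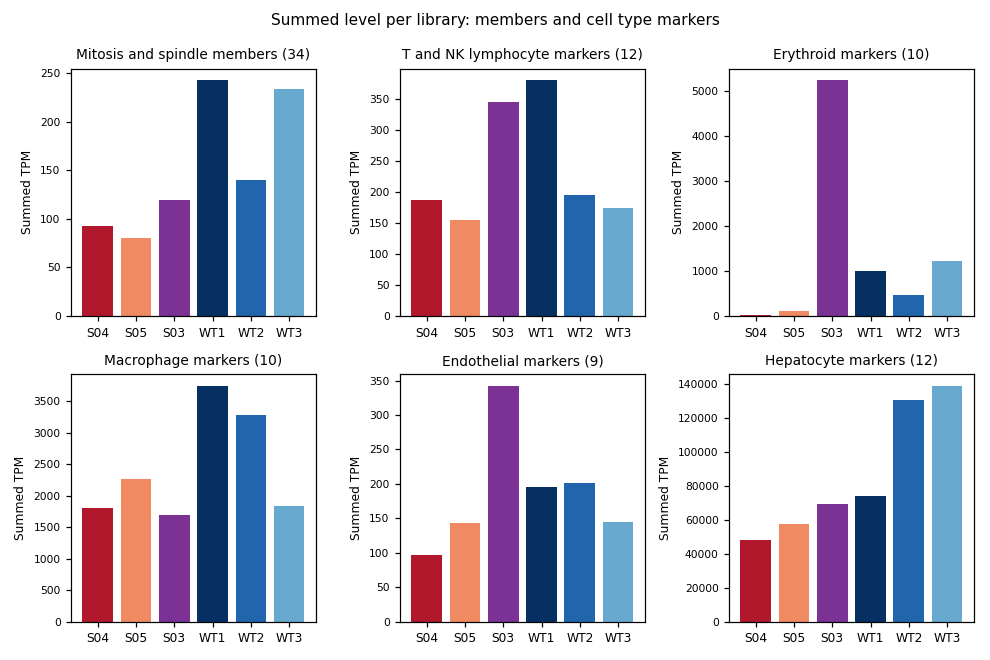
Summed TPM of the 34 mitosis and spindle genes and of 5 sets of cell type markers, 1 bar per library, each panel with its own axis from 0. The mitosis genes are at 80.19 to 119.8 TPM in the ASGR1+/- livers and 139.6 to 242.6 TPM in the WT livers. The hepatocyte markers follow the same order of genotypes through ALB. The erythroid and endothelial markers lie below every WT liver in S04 and S05 but above every WT liver in S03. The lymphocyte and macrophage markers overlap between S04 and S05 and WT.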

How the data were processed

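Liver RNA of 6 pigs, 1 library per animal, was sequenced on a BGISEQ platform. Per the study's methods and the submitters' processing notes, reads were trimmed and aligned to the pig genome Sscrofa11.1 with HISAT2 2.0.4 and to transcripts with Bowtie2. The counting tool is not given in the sources used here. The authors deposited estimated counts, of which 12.0% of values are not whole, and TPM for each library. FPKM and the columns of group means, where S03 is averaged in, were set aside. Estimated counts were rounded and tested in R 4.3.3 with edgeR 4.0.16 (quasi-likelihood test, TMM scaling, genes kept by filterByExpr with a minimum count of 10, Benjamini-Hochberg adjustment over all genes tested, threshold 0.05). The standard error was taken as the log2 fold change divided by the square root of the F statistic. DESeq2 1.42.0 and limma 3.58.1 (voom, and log2 of TPM plus 0.1 or 1) served as alternatives, with a minimum count of 20, no filter, and each animal left out. DESeq2 with an animal left out and library totals without TMM were added after the data had been seen.

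The fit was tested on simulated data. Each library was taken as an independent animal, and the p-values measure the spread between these animals only. The sources used here do not give the litter or parents of each sequenced pig, so family and genotype cannot be told apart. Genes were matched by ID to RefSeq's Sscrofa11.1 table, all 17109 of them, and positions are 1-based. The 34 genes and all lists were chosen with earlier results of these data known. All members are given. Members with the smallest unadjusted p of each role or non-overlapping levels are given per library, and from each other list the genes that passed and the 3 with the smallest unadjusted p are named. Promoter motifs were not analysed here.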

Additional observations from a re-analysis of the deposited data

How the results depend on the processing

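Of the 34 genes, 1 (PRC1) was called lower in S04 and S05 with edgeR. DESeq2 called 27, edgeR without a filter or with a minimum count of 20 called 2 (NUSAP1 and PRC1), limma on log2(TPM + 0.1) called 3 (CDK1, CCNB2 and PRC1) and on log2(TPM + 1) called 2 (CCNB2 and PRC1), and DESeq2 size factors in edgeR or voom called PRC1 alone. Including S03 gave 0, library totals without TMM gave 0 (29 at an unadjusted p under 0.05, smallest adjusted p 0.054), and leaving out 1 animal gave 0 each time in edgeR and 6 (without S05), 18 (WT3), 19 (WT1), 20 (S04) and 27 (WT2) in DESeq2. The count at an unadjusted p under 0.05, 30, ran from 21 to 32. The median of -1.67 was -0.997 on log2(TPM + 1), a scale that understates the change of low genes. Among the other cell cycle genes, the 1 call (CCND3) became 44 in DESeq2, 2 on log2(TPM + 0.1) (FAM83D among them, CCND3 not), 0 on log2(TPM + 1) and 0 with S03. In edgeR it stayed CCND3 alone without WT1 (adjusted p 0.0368), and there was 0 without WT2. Without WT3 the 1 call was GTSE1, which was lower (adjusted p 0.0411 in edgeR), and not CCND3. With all 3 ASGR1+/- livers, 0 calls became 26 in DESeq2 and 0 to 1 with an animal left out (1 without S03). Among the alternatives of the S04 and S05 comparison whose signs were counted, which leave out DESeq2 with an animal left out, all 34 changes were negative except without WT3, where ECT2 was at 0.10 (-0.67 without WT2). Library totals without TMM and log2(TPM + 0.1) each shifted the median of all genes to 0.105. No paired analysis was run because the sample labels name no pairs of ASGR1+/- and WT animals. The median gene of the 34 had a mean count of 95.5 per library, and 2 animals were compared with 3.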

Other observations

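Among the 47 other cell cycle genes with a positive change in S04 and S05, MAD2L2 and ANAPC7 were chosen here after their values had been seen. MAD2L2, a relative of the checkpoint protein MAD2 that acts in DNA repair, was at 44.96 and 25.72 TPM in S04 and S05 and 21.41 TPM in S03, against 17.90, 20.34 and 17.77 TPM in WT1, WT2 and WT3. ANAPC7, a scaffold subunit of the anaphase-promoting complex, was at 18.22 and 22.04 TPM in S04 and S05 and 17.93 TPM in S03, against 13.09, 13.77 and 13.27 TPM in WT1, WT2 and WT3. In TPM, all ASGR1+/- livers were above all WT livers for both genes. In TMM-scaled counts, MAD2L2 in S03 was below WT2 and WT3. Neither passed, with log2 fold changes of 0.82 and 0.46 and adjusted p of 0.179 and 0.204 in edgeR's quasi-likelihood test.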
